A study of Mus musculus with 2 samples.

Results

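Lymphatic endothelial cells line the vessels that drain fluid, fats and immune cells out of the skin. Here they were chosen by their own transcript counts, as the segmented cells with at least 20 gene transcripts, at least 2 transcripts of Prox1 and Mmrn1 together, fewer than 3 of the keratinocyte genes Krt5, Krt15 and Col17a1, and fewer than 3 of the muscle genes Tnnt1 and Arpp21. That rule found 464 cells in the Utx-cKO section and 499 in the WT section, 963 of 70658 cells with at least 20 transcripts. The assay was Xenium, which reads out individual RNA molecules where they lie in the tissue, with a custom panel of 480 genes on 5 µm slices of fixed whole skin.

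There was 1 section per group. The Utx-cKO section came from B6/129 female mice carrying a Krt14-Cre deletion of Kdm6a (Utx). That gene encodes a histone demethylase, and Krt14 is the keratin of the basal epidermis, so the deletion is aimed at keratin 14 tissues. The WT control section came from B6/129 females, and neither group had a treatment. Endothelium does not normally express keratin 14. The sources used here give no ages, skin sites or number of animals per section. With 1 section per group nothing was tested, and every interval below is an exact 95% interval for counting error alone, which leaves out differences between animals.

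Each section held 4 separate strips of tissue. Strips show how even a value was across a section, and they are not replicates. Lymphatic endothelial cells carried a median of 47 transcripts in the Utx-cKO section and 57 in the WT section, against 48 and 62 in all cells kept. Their summed counts were 24950 and 32141. Levels below are CPM, a gene's counts as a share of all gene transcripts in a set of cells, scaled to a common total. Of the cell identifiers, 2 occurred in both sections, and negative control probes gave 3 counts in the Utx-cKO lymphatic cells and 5 in the WT ones.

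Blind-ended lymphatic capillaries lie close under the epidermis and lead into deeper collecting vessels, which have valves and a coat of smooth muscle. The transcription factor Prox1 sets and maintains lymphatic identity, and Mmrn1 encodes multimerin 1, a secreted glycoprotein abundant in lymphatic endothelium. Blood vessels of the skin share the general endothelial programme but not Prox1, and they were used as the closest comparison.

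**Figure D1:**
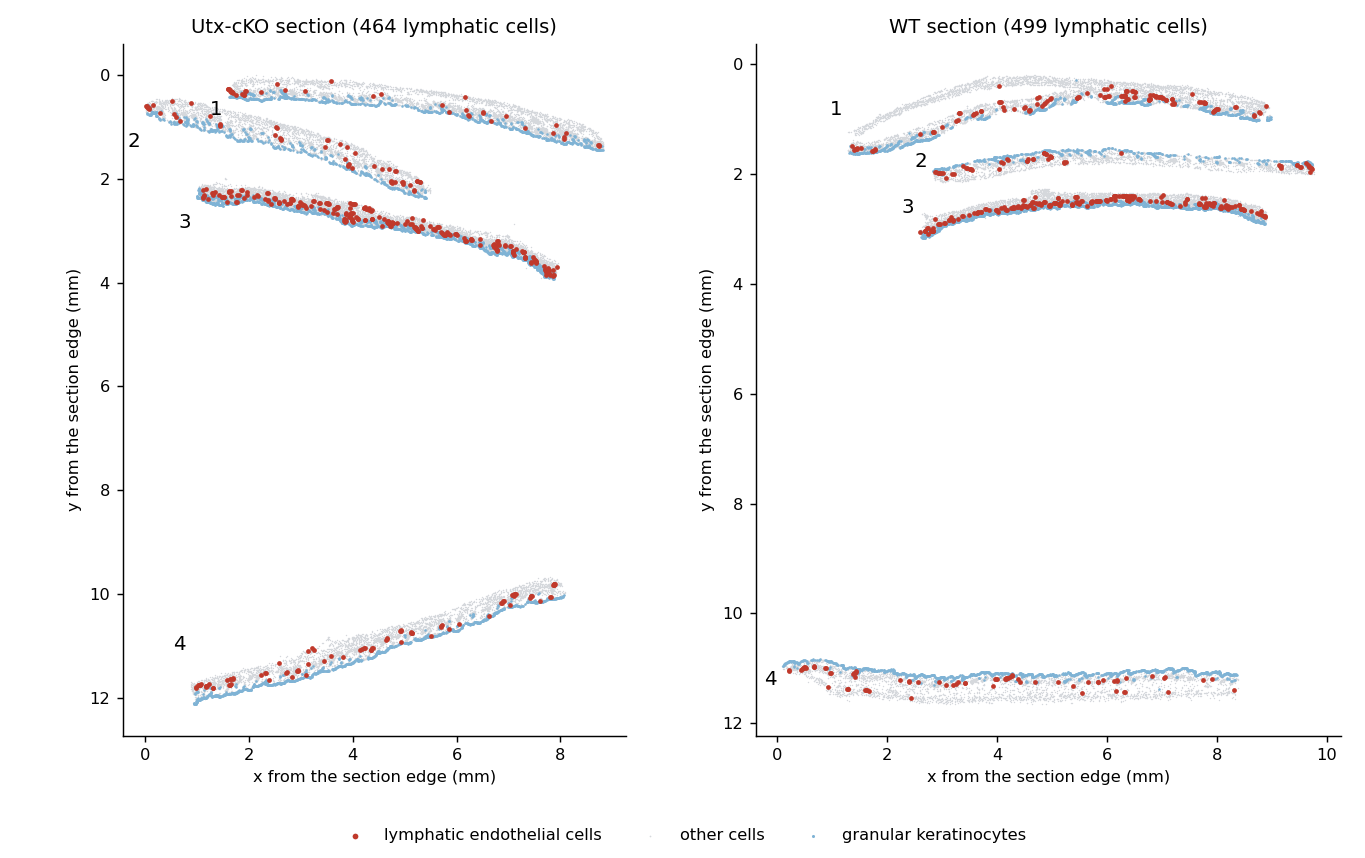
Position of each lymphatic endothelial cell (red points), granular keratinocytes of the upper epidermis (blue) and all other cells kept (grey), for Utx-cKO on the left and WT on the right, with both axes in mm. The 4 strips of each section are numbered, and in both sections strip 3 is the one with most lymphatic cells, 274 in the Utx-cKO section and 240 in the WT section.

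The cells made up 1.24% of the Utx-cKO cells (interval 1.13 to 1.36%) and 1.5% of the WT cells (1.37 to 1.64%), a log2 ratio of -0.27 (-0.46 to -0.09). The shares in Utx-cKO strips 1 to 4 were 0.445%, 0.802%, 2.00% and 1.25%. The WT strips 1 to 4 had 1.29%, 1.10%, 2.26% and 0.992%. The strips of the 2 sections overlapped, and the sign of the ratio depended on which strips entered: it was 0.0090 with Utx-cKO strip 1 left out, 0.12 with WT strip 3 left out and -0.90 with Utx-cKO strip 3 left out.

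Strip 3 stood apart in both sections. It held 59.1% of the Utx-cKO lymphatic cells and 48.1% of the WT ones, at 102 and 122 cells per mm² of tissue. The other strips had 12.5, 19.4 and 26.7 cells per mm² in the Utx-cKO section and 35.3, 26.8 and 18.8 in the WT section. Blood vessel endothelial cells, those with at least 2 transcripts of Flt1, Plvap, Cdh5, Vwf and Sox17 together and none of Prox1 and Mmrn1, were also densest there, at 325 per mm² in Utx-cKO and 413 per mm² in WT. Over the whole sections there were 0.262 lymphatic cells per blood vessel cell in Utx-cKO (464 to 1768) and 0.241 in WT (499 to 2074).

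The values that chose the cells are given here as a description only. The sum of Prox1 and Mmrn1 was exactly 2, just inside the limit, in 137 Utx-cKO and 142 WT members. It was 6 or more in 105 Utx-cKO and 129 WT members, with maxima of 24 and 19. Just outside the limit, 842 Utx-cKO and 662 WT cells met every other condition with a sum of 1. The keratinocyte limit removed 8 Utx-cKO and 11 WT cells, the muscle limit 3 Utx-cKO and 0 WT cells, and the limit of 20 transcripts 63 Utx-cKO and 38 WT cells.

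Mmrn1 supplied most of the calls. It was 62365 CPM in Utx-cKO lymphatic cells and 61137 CPM in WT ones, and its strips ranged from 57588 to 79218 CPM in Utx-cKO and from 57520 to 81158 CPM in WT. Prox1 was 16273 CPM in the Utx-cKO cells and 9334 CPM in the WT cells, a log2 ratio of 0.80 (0.58 to 1.02), and its strips overlapped at 12670 to 18399 CPM in Utx-cKO against 7637 to 13310 CPM in WT. Both genes were seen in 53.7% of Utx-cKO members and 38.3% of WT members, while Mmrn1 alone admitted 43.8% and 59.5%. Because both genes belong to the rule, the balance between them is described and not read further. In 12 Utx-cKO and 11 WT members the call rested on Prox1 alone.

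The label was checked with lymphatic genes that the rule did not use. The panel holds 4 of them: Stab1, which encodes stabilin 1, a scavenger receptor also made by macrophages; Pdpn, which encodes podoplanin, a membrane glycoprotein; the transcription factor Nr2f2, a partner of Prox1 in lymphatic specification; and Tbx1, a transcription factor needed for lymphatic development in mice. All 4 were at least 2 times higher than in all other cells in both sections. The background for that size is 29 of 123 genes (23.6%) with at least 100 counts in lymphatic cells, and 8 genes (6.5%) were at least 2 times lower. That minimum was counted in the lymphatic cells themselves, which favours genes high there. The balance of higher and lower genes is therefore tilted upward. The widely used markers Lyve1, Flt4 and Ccl21a were not among the genes analysed here.

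Levels of Stab1, and of Duox2, which is not on that list, rose with the number of rule transcripts per cell. The cells were split here by the sum that chose them, so the steps describe the limit and are no separate check of the label. Stab1 was 3445 CPM in Utx-cKO cells with a sum of 1, 12532 CPM at 2 and 20657 CPM at 3 or more. In WT cells it was 4171, 13679 and 25097 CPM over the same 3 steps. Duox2, which has the highest fold over other cells by the lower of its 2 sections, was 455, 2593 and 5220 CPM in Utx-cKO cells and 450, 1824 and 3924 CPM in WT cells. Members at the limit therefore carried lower levels of both genes than members well inside it, and cells just outside it carried the least.

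Stab1 had 459 counts and 18397 CPM in Utx-cKO lymphatic cells, and 719 counts and 22370 CPM in WT ones, which was 5.31 and 7.44 times its level in blood vessel cells. After each cell was thinned to 20 transcripts, 31.5% of Utx-cKO and 38.5% of WT lymphatic cells had a Stab1 transcript, against 6.05% and 6.03% of blood vessel cells. The same shares in granular keratinocytes, which are not known to make it, were 0.167% and 0.106%. Before thinning, 54.1% of Utx-cKO and 64.3% of WT lymphatic cells had one. Macrophages had 14429 and 13078 CPM of Stab1. The macrophage markers C1qa, Cd68 and C5ar1 together reached 1603 and 2022 CPM in lymphatic cells and 3857 and 4520 CPM in the cells within 20 µm of them. None of the 3 was at 0, and their part in the Stab1 level was not tested.

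Pdpn was 4930 CPM in Utx-cKO lymphatic cells and 4418 CPM in WT ones, 5.81 and 5.14 times its level in blood vessel cells. Tbx1 was 3206 and 2614 CPM, 19.99 and 30.2 times the level in blood vessel cells. Nr2f2, which veins also use, was 10381 and 13161 CPM, with a smaller margin over blood vessels of 1.56 times in Utx-cKO and 2.77 times in WT. The order of the 4 by fold over blood vessel cells was Tbx1 first and Nr2f2 last in both sections.

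**Figure D2:**
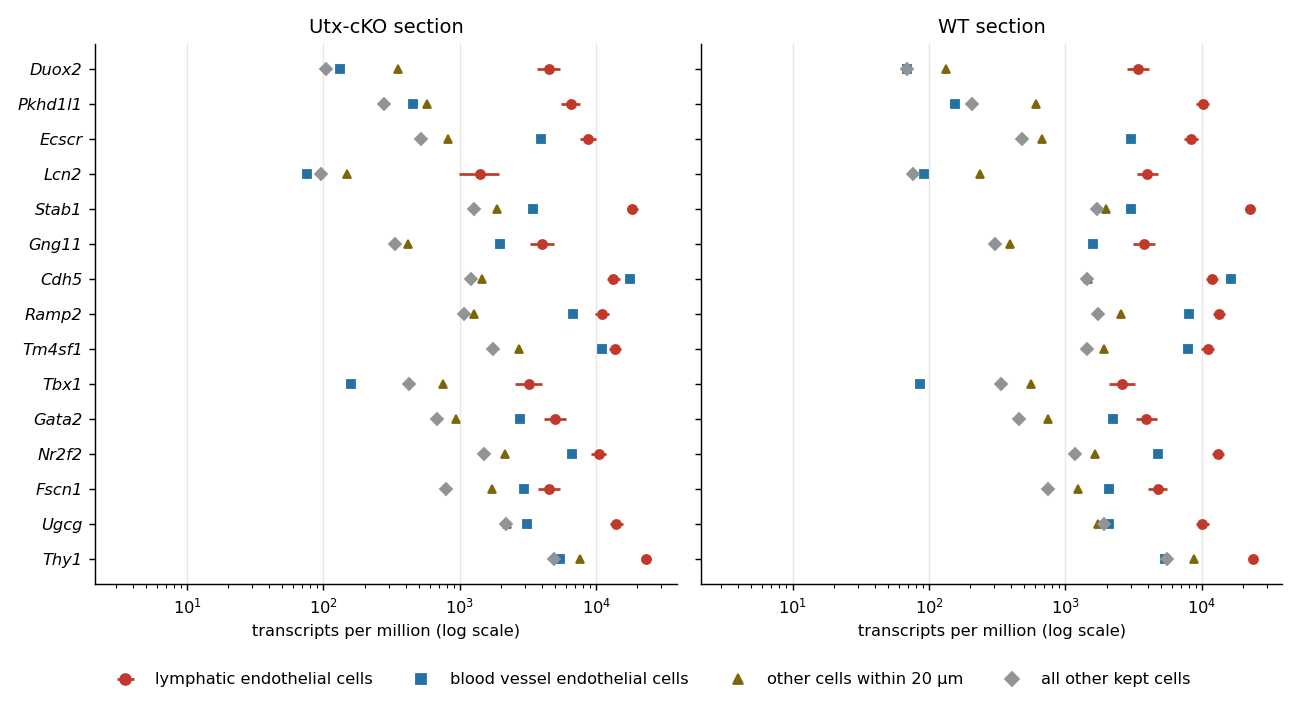
Level of the 15 leading genes (log axis, CPM) in lymphatic endothelial cells (red, with exact 95% counting intervals as bars), blood vessel endothelial cells (blue), other cells within 20 µm (olive) and all other cells kept (grey), for Utx-cKO on the left and WT on the right. Duox2, Pkhd1l1, Lcn2 and Tbx1 separate lymphatic from blood vessel cells in both sections, while Tm4sf1 is near in the 2 vessel types. Cdh5 helped define the blood vessel class, so its 2 levels are not compared.

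Duox2, Pkhd1l1 and Lcn2, which were on none of the lymphatic lists used, had folds over all other cells as high as or higher than those lists' members. Duox2, which encodes a dual oxidase that makes hydrogen peroxide at membranes, had 112 counts and 4489 CPM (3696 to 5401) in Utx-cKO lymphatic cells and 110 counts and 3422 CPM (2813 to 4125) in WT ones. Its level in all other cells was 104 and 69.0 CPM, so the lymphatic level was 43.3 times higher in Utx-cKO and 49.6 times higher in WT. Over blood vessel cells it was 34.0 and 49.4 times higher. In all 8 strips Duox2 lay above its level in other cells, from 3680 to 5144 CPM in Utx-cKO and from 1258 to 10204 CPM in WT.

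Pkhd1l1 encodes fibrocystin-like protein, a very large membrane protein. It had 162 counts and 6493 CPM (5532 to 7573) in Utx-cKO lymphatic cells and 326 counts and 10143 CPM (9072 to 11306) in WT ones, 23.4 and 49.4 times the level in other cells. Blood vessel cells held 453 CPM in Utx-cKO and 156 CPM in WT, from 48 and 27 counts. Lcn2, the gene of lipocalin 2, an iron-siderophore binding protein of innate defence, had 35 counts and 1403 CPM (977 to 1951) in Utx-cKO lymphatic cells and 128 counts and 3983 CPM (3323 to 4735) in WT ones, 14.7 and 52.1 times the level in other cells. All 3 genes were thus concentrated in lymphatic cells in both sections, with Duox2 closest to equal between them.

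The same counts can also be given as shares of each gene's transcripts, which is no separate evidence. Lymphatic cells held 1.02% of all gene transcripts in Utx-cKO cells and 1.22% in WT cells, yet 27.9% (23.5 to 32.5%) and 35.6% (30.3 to 41.2%) of the Duox2 transcripts that lay in cells. The share for Pkhd1l1 was 17.2% in Utx-cKO and 35.2% in WT, and for Lcn2 12.4% and 37.6%. Prox1 and Mmrn1 themselves had 52.7% and 54.7% of their in-cell transcripts in the Utx-cKO lymphatic cells, and 55.1% and 67.0% in the WT ones. Of the Pkhd1l1 transcripts in lymphatic cells, 74.7% in Utx-cKO and 73.3% in WT lay over the nucleus, against 54.9% and 48.6% for all genes. This was not particular to Pkhd1l1. Stab1 had 73.2% and 67.5% and Tbx1 73.75% and 71.4%, while Mmrn1, at 56.0% and 52.1%, was nearer to all genes.

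The levels also exceeded those of the immediate surroundings. Against the 1895 Utx-cKO and 2058 WT cells within 20 µm of a lymphatic cell, Duox2 was 12.9 and 25.5 times higher, Pkhd1l1 11.3 and 16.6 times, Lcn2 9.46 and 16.9 times and Stab1 9.76 and 11.3 times. By the same measure 24 of 123 genes (19.5%) were at least 2 times higher than in these neighbours in both sections. This share too comes from genes with enough counts in lymphatic cells, which favours genes high there. The neighbours include cells with a rule sum of 1, which carried some of these transcripts.

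Duox2, Pkhd1l1 and Lcn2 were spread over many groups of lymphatic cells. Lymphatic cells chained at 30 µm formed 225 groups in Utx-cKO and 240 in WT, of which 120 and 119 were single cells. A single vessel may give several groups, so groups do not count vessels. Duox2 was seen in 95 Utx-cKO cells from 71 groups and 84 WT cells from 71 groups. Pkhd1l1 was seen in 119 Utx-cKO cells from 87 groups and 196 WT cells from 131 groups. Lcn2 was seen in 34 Utx-cKO cells from 30 groups and 103 WT cells from 80 groups. Of these Lcn2 cells, 23 in Utx-cKO and 79 in WT lay in strip 3. No group held more than 8.57% of the transcripts of any of the 3.

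General endothelial genes were high in lymphatic cells as well. Ecscr, an endothelial cell surface regulator, was 8738 CPM in Utx-cKO lymphatic cells and 8338 CPM in WT ones, 16.7 and 17.2 times other cells and 2.23 and 2.76 times blood vessel cells. Gng11, a G protein gamma subunit, was 12 and 12.4 times other cells and 2.04 and 2.38 times blood vessel cells. Ramp2 and Calcrl form the receptor for adrenomedullin, a peptide needed for lymphatic growth in mice. Ramp2 was 11062 and 13347 CPM and Calcrl 5651 and 5756 CPM in Utx-cKO and WT lymphatic cells. Cdh5, VE-cadherin of endothelial junctions, was 13307 and 11792 CPM. Its level in blood vessel cells, 17796 and 16470 CPM, helped define that class and is not compared.

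Of 283 genes with enough counts, 20 (7.07%) were at least 2 times higher in lymphatic than in blood vessel cells in both sections. Besides Duox2, Tbx1, Lcn2, Pkhd1l1, Stab1 and Pdpn they included Thy1, a glycolipid-anchored surface protein to which leukocytes bind. Thy1 is also on the list of T and NK cell markers used here. Thy1 was 22966 CPM in Utx-cKO lymphatic cells and 23770 CPM in WT ones, 4.25 and 4.39 times blood vessel cells and 3.04 and 2.70 times the cells within 20 µm. Ugcg, the glucosylceramide synthase, was 14028 and 10049 CPM, 4.52 and 4.84 times blood vessel cells. Marcksl1, an actin and membrane binding protein, was 4.91 and 6.6 times blood vessel cells. Ptn, the growth factor pleiotrophin, was 4.72 and 4.84 times blood vessel cells but 0.542 and 0.604 times the cells within 20 µm, so its margin over blood vessels was not one over the surroundings.

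On the other side, 34 of the 283 genes (12%) were at least 2 times lower than in blood vessel cells in both sections. Sparcl1, a matrix protein of the vessel wall, was 3206 CPM in Utx-cKO lymphatic cells against 23061 CPM in Utx-cKO blood vessel cells, and 3609 CPM against 19743 CPM in the WT section, log2 ratios of -2.85 and -2.45. All 3 glycolysis genes with enough counts were lower: Tpi1 by log2 ratios of -2.23 in Utx-cKO and -2.04 in WT, Ldha by -1.70 and -2.11, and Pkm by -1.54 and -1.61. So were 2 of 3 lipid genes, Acsl1, which activates fatty acids (-1.66 and -2.83), and Scd1, a fatty acid desaturase (-1.19 and -2.75), and the antioxidant enzyme Cat (-1.64 and -1.82). Gpx1, another antioxidant enzyme, had ratios of -0.97 and -0.996, short of 2 times. Myh11, the smooth muscle myosin, was lower by -1.11 and -1.21. The blood vessel class did not exclude cells that also met the pericyte and smooth muscle rule, which uses Myh11. From blood vessel cells, the lower quartile of distance to the nearest such cell was 0 µm in both sections. The part of these cells in the ratios of Myh11, Sparcl1 and the other genes named here was not tested.

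Markers of other cell types were present, some lists below and some above their level in nearby cells. The 5 blood vessel markers summed to 20240 CPM in Utx-cKO and 18294 CPM in WT, above 4869 and 5562 CPM in the cells within 20 µm. Cdh5, shared by both vessel types, gave 332 of their 505 Utx-cKO counts and 379 of their 588 WT counts. The fibroblast markers Pdgfra, Lum, Mfap4, Sfrp2 and Aspn summed to 22605 CPM in Utx-cKO lymphatic cells and 31331 CPM in WT ones, below the 37627 and 43989 CPM of the cells within 20 µm. The 3 pericyte and smooth muscle markers Rgs5, Notch3 and Myh11 summed to 7255 and 5414 CPM, against 5890.1 and 5884 CPM in the cells within 20 µm, so they were above those cells in Utx-cKO and below them in WT. Of 13 upper keratinocyte markers the sum was 7014 CPM in Utx-cKO and 3547 CPM in WT, and 1 Utx-cKO strip reached 35195 CPM. The T and NK cell markers summed to 24409 and 24890 CPM, above the 9040.1 and 9974.5 CPM of the cells within 20 µm. Thy1 gave 573 of their 609 Utx-cKO counts and 764 of their 800 WT counts. The mast cell markers Kit and Gata2 summed to 5651 and 4387 CPM, above 1588 and 1249 CPM in the cells within 20 µm. Gata2 gave 125 of their 141 Utx-cKO counts and 126 of their 141 WT counts. No list had a member at 0. The part of neighbouring cells' transcripts in these levels was not tested.

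**Figure D3:**
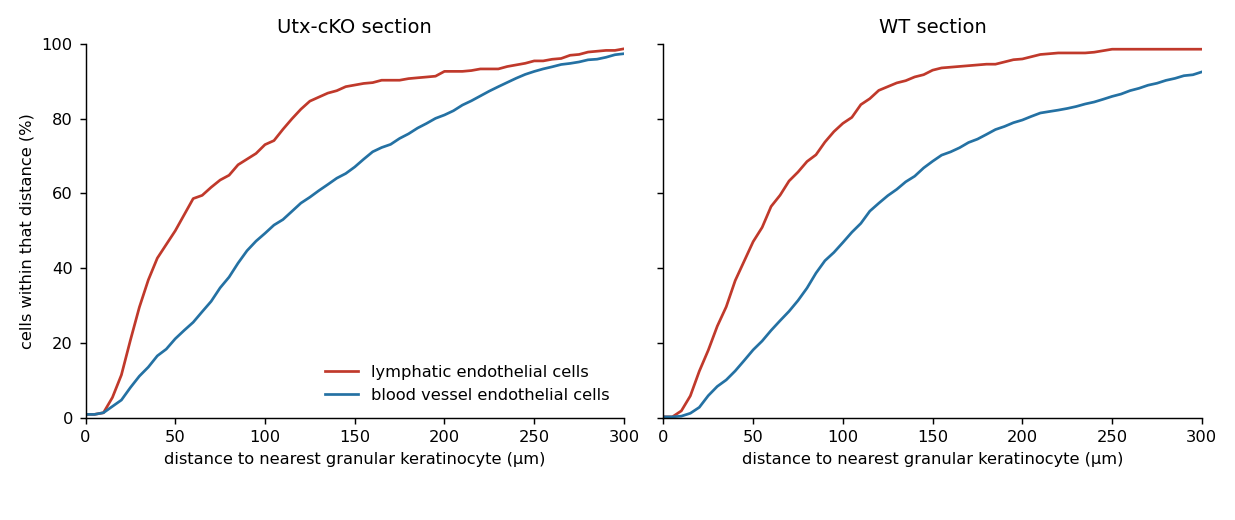
Cumulative share of cells (percent) within a given distance (µm) of the nearest granular keratinocyte, for lymphatic and blood vessel endothelial cells, with Utx-cKO on the left and WT on the right. From about 20 µm on, the lymphatic curve lies above the blood vessel curve in both sections, with 50% of Utx-cKO and 47.1% of WT lymphatic cells within 50 µm against 21.1% and 18.1% of blood vessel cells.

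Lymphatic cells lay close under the epidermis. Their median distance to the nearest granular keratinocyte, a cell with at least 5 transcripts of 9 cornified layer markers, was 50.01 µm (43.3 to 55.7) in Utx-cKO and 53.4 µm (48.0 to 58.9) in WT. Blood vessel cells were at 102.3 µm (95.5 to 108.9) and 105.7 µm (101.8 to 110.2), and fibroblasts at 72.7 and 76.3 µm. In Utx-cKO strips 1 to 4 the lymphatic medians were 50.9, 103.3, 35.9 and 106.9 µm, against blood vessel medians of 148.6, 175.3, 74.5 and 153.1 µm. In WT strips 1 to 4 they were 75.1, 52.4, 39.0 and 86.9 µm, against 140.4, 110.4, 72.4 and 219.2 µm. Lymphatic cells were the closer in all 8 strips, and the strips of the 2 sections overlapped.

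The section median was set largely by strip 3. Without it the lymphatic median was 85.1 µm in Utx-cKO and 75.3 µm in WT. To the nearest cell with at least 3 transcripts of Krt5, Krt15 and Col17a1, which includes hair follicles, the medians were 23.9 µm in Utx-cKO and 25.8 µm in WT, against 67.0 and 73.7 µm for blood vessel cells.

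Their company differed from that of blood vessels in the same direction in both sections. Among cells within 30 µm of a lymphatic cell, 36.1% in Utx-cKO and 36.0% in WT carried at least 3 transcripts of Krt5, Krt15 and Col17a1, against 20.3% and 21.6% around blood vessel cells. Pericytes and smooth muscle cells were 4.61% and 5.61% of the neighbours of lymphatic cells and 10.51% and 11.9% of those of blood vessel cells. Neighbours that met both the blood vessel and the pericyte rule count in these shares, and their part was not tested. The nearest pericyte was 37.2 µm away in Utx-cKO and 35.3 µm in WT, against 12.2 and 11.3 µm from a blood vessel cell, where a cell that met both rules counts as 0. Fibroblasts were 28.6% of lymphatic neighbours in Utx-cKO and 36.3% in WT, and macrophages 4.44% and 5.88%.

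The nearest other lymphatic cell was 13.9 µm away in Utx-cKO and 12.5 µm in WT. Groups of at least 3 chained cells numbered 52 in Utx-cKO and 63 in WT, the largest with 14 and 9 cells, and 25.9% and 23.8% of lymphatic cells were single. Their nuclei were long, with a median ratio of long to short axis of 2.13 (2.03 to 2.27) in Utx-cKO and 2.12 (2.04 to 2.20) in WT. The ratio was 1.87 and 1.89 for blood vessel cells and 1.78 and 1.80 for all other cells. Cell areas were 120 µm² and 116 µm².

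Some genes differed in level between lymphatic cells near the epidermis and deeper ones. Cells within 50 µm of a granular keratinocyte were set against those farther away, a split chosen after the data were seen. In both sections 6 of 123 genes (4.88%) were at least 1.5 times higher near the epidermis and 13 (10.6%) at least 1.5 times lower. Without strip 3 the counts were 4 (3.25%) and 17 (13.8%).

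**Figure D4:**
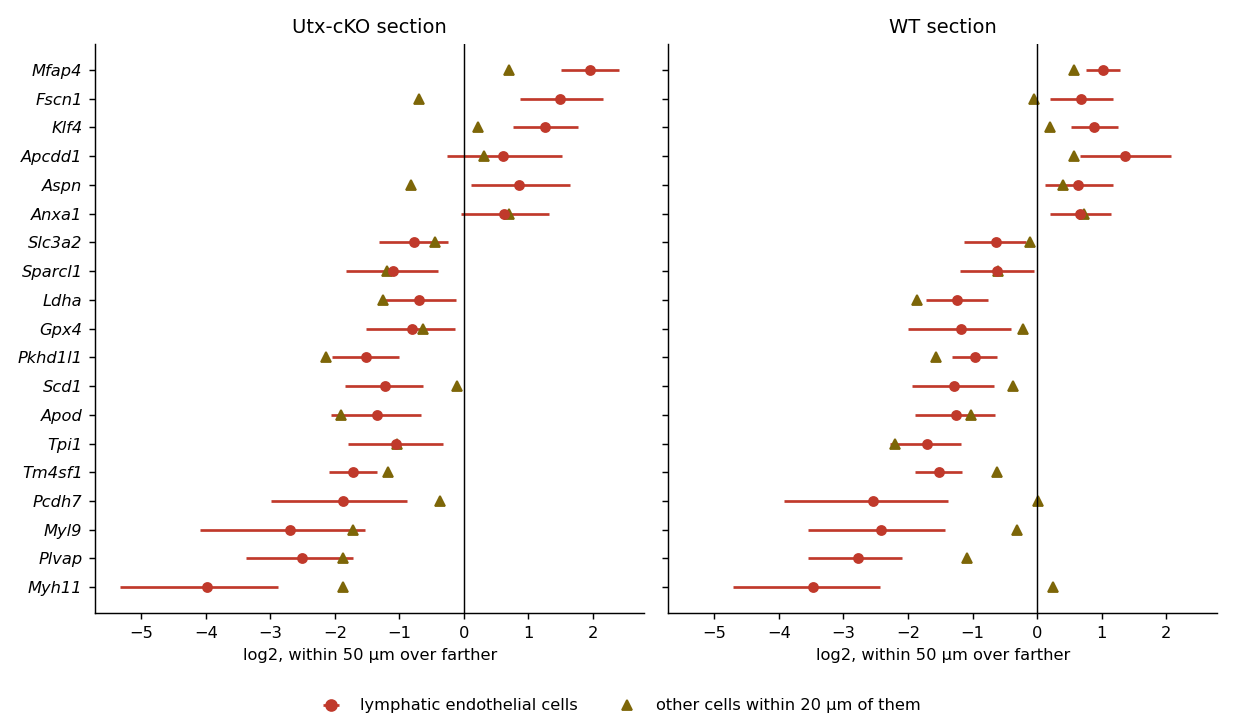
Log2 ratio of lymphatic endothelial cells within 50 µm of a granular keratinocyte over those farther away, in Utx-cKO and WT, for the genes at least 1.5 times apart in both sections, with exact 95% counting intervals as bars and triangles for the same ratio in other cells within 20 µm of them. Mfap4, Fscn1 and Klf4 lead the genes higher near the epidermis, and Myh11, Plvap and Myl9 those lower.

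Higher near the epidermis were Fscn1, which encodes the actin-bundling protein fascin, and the transcription factor Klf4. The part of keratinocyte transcripts in these levels was not tested. Fscn1 was 6627 CPM near the epidermis against 2363 CPM deeper in Utx-cKO, and 5906 against 3668 CPM in WT, log2 ratios of 1.49 and 0.69. Other cells within 20 µm had ratios of -0.70 and -0.04 for Fscn1. Klf4 was 9546 against 3992 CPM in Utx-cKO and 10959 against 5917 CPM in WT, and other cells nearby had ratios of 0.21 and 0.20. Fscn1 was still past 1.5 times in both sections without strip 3, and Klf4 was not. The fibroblast genes Mfap4 (1.95 and 1.02) and Aspn (0.86 and 0.64) were higher too, and Mfap4 was also higher in the surrounding cells (0.70 and 0.57).

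The genes lower near the epidermis included Myh11, the smooth muscle myosin. It had 7 counts near the epidermis against 107 deeper in Utx-cKO, and 8 against 98 in WT. Myl9, a myosin light chain of smooth muscle, had log2 ratios of -2.70 and -2.41. Plvap, which builds the diaphragms of endothelial pores, was 1262 against 7170 CPM in Utx-cKO and 1247 against 8579 CPM in WT. Tm4sf1, an endothelial membrane protein, was 6469 against 21264 CPM in Utx-cKO and 5578 against 15974 CPM in WT. Pcdh7, a protocadherin, had ratios of -1.87 and -2.54 while the surrounding cells had -0.37 and 0.01. The surrounding cells shifted the same way for Plvap (-1.87 and -1.09) and Tm4sf1 (-1.18 and -0.63), and for Myh11 in Utx-cKO (-1.87) but not in WT (0.24). Without strip 3, Plvap, Tm4sf1, Myh11, Myl9 and Pcdh7 were still past 1.5 times in both sections.

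Pkhd1l1 was also lower near the epidermis, at 3392 against 9695 CPM in Utx-cKO and 6759 against 13194 CPM in WT, log2 ratios of -1.52 and -0.96. Other cells within 20 µm shifted the same way (-2.14 and -1.56). With strip 3 left out the ratios were -1.03 in Utx-cKO and -0.52 in WT, the second short of 1.5 times. Cells with a Pkhd1l1 transcript had more Tm4sf1 than those without, 23578 against 9686 CPM in Utx-cKO and 14044 against 8723 CPM in WT. Tm4sf1 was not alone in this, as Gata2 was 7676.5 against 3908 CPM in Utx-cKO and 5133 against 2981 CPM in WT. Mmrn1 went the other way, with 55517 against 65194 CPM in Utx-cKO and 56605 against 64646 CPM in WT. The median transcripts per cell were 54 against 45 in Utx-cKO and 65 against 52 in WT. Stab1, by contrast, differed little with depth (0.10 and 0.23).

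Strip 3 also differed from the rest in its lymphatic genes, a comparison chosen after the values were seen. In both sections 13 of 123 genes (10.6%) were at least 1.5 times higher and 11 (8.94%) at least 1.5 times lower there. Those lower included H2-K1, the heavy chain of a class I molecule that presents peptides to T cells. It was 14382 CPM in strip 3 against 43086 CPM in the other strips of Utx-cKO, and 18144 against 41015 CPM in WT. Tap1, which carries peptides to class I molecules, had log2 ratios of -1.97 and -2.08, and Nlrc5, which switches on class I genes, had -1.78 and -2.12. Irf1, an interferon response factor, went the same way (-0.69 and -0.79). H2-D1 did too (-1.16 and -1.10), though H2-K1 and H2-D1 are close in sequence and their probes may share targets. In blood vessel cells H2-K1 had ratios of -0.67 and -0.62.

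Those higher in strip 3 included Igfbp3, which binds insulin-like growth factors. It was 11995 against 3173 CPM in Utx-cKO and 10020 against 2559 CPM in WT, with log2 ratios of 1.92 and 1.97, against 1.24 and 2.00 in blood vessel cells. Col5a2, a fibrillar collagen, had ratios of 1.22 and 1.81, and the fibroblast genes Aspn and Mfap4 were higher as well. Pkhd1l1 was lower in strip 3 (-0.67 and -1.47).

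Between Utx-cKO and WT lymphatic cells most genes were within 1.5 times of each other. The median log2 ratio over 123 genes was -0.004, against 0.04 in blood vessel cells and -0.07 in all other cells. Of the 123 genes, 18 (14.6%) were at least 1.5 times apart, 8 (6.5%) higher in Utx-cKO and 10 (8.13%) lower. For the same genes 14 (11.4%) passed that size in blood vessel cells and 5 (4.07%) in all other cells. The strips of the sections overlapped for all 18, and 17 of them were under 1.5 times with at least 1 strip left out. Leaving out WT strip 3 alone took 12 of the 18 under that size. The single gene whose 4 Utx-cKO strips lay apart from the 4 WT strips, 0.813% of the 123, was Tgfbi, an adhesion protein of the matrix, with a log2 ratio of -0.55.

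Kdm6a itself had 69 counts and 2766 CPM (2152 to 3500) in Utx-cKO lymphatic cells, and 92 counts and 2862 CPM in WT ones, a log2 ratio of -0.05 (-0.52 to 0.42). The Utx-cKO strips had 2816, 2300, 2626 and 3601 CPM, and the WT strips 3032, 1331, 2816 and 3775 CPM. The ratio was -0.15 in blood vessel cells and -0.22 in all other cells. No source used here says which exons the Kdm6a probes cover, so these values do not check the deletion. The interval leaves room for differences of up to log2 0.52 downward.

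**Figure D5:**
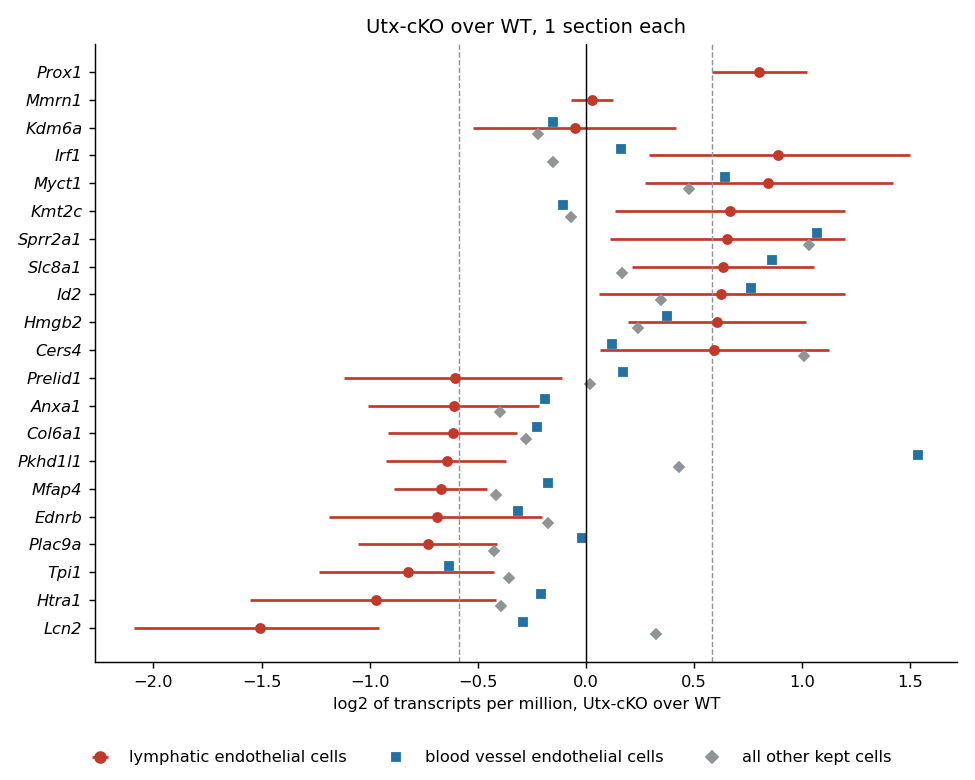
Log2 ratio of Utx-cKO over WT in lymphatic endothelial cells for the genes at least 1.5 times apart and for Kdm6a, Prox1 and Mmrn1, with exact 95% counting intervals as bars, and the same ratio in blood vessel endothelial cells (squares) and all other cells (diamonds). Dashed lines mark 1.5 times. Irf1 leads the genes higher in Utx-cKO at 0.89, and Lcn2 those lower at -1.51.

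Higher in Utx-cKO lymphatic cells were Irf1 and Myct1, an endothelial membrane protein. Irf1 was 2365 CPM in Utx-cKO and 1276 CPM in WT, a log2 ratio of 0.89 (0.29 to 1.5) from 59 and 41 counts. Myct1 was 2565 and 1431 CPM, a ratio of 0.84 from 64 and 46 counts, and it was also higher in blood vessel cells (0.65). With WT strip 3 left out Irf1 was 0.49 and Myct1 0.18. Kmt2c, a histone H3 lysine 4 methyltransferase, was 0.67 from 69 and 56 counts and the only one of 8 chromatin regulators past 1.5 times. Kmt2c was 0.16 over nuclei and 0.24 after thinning, and under 1.5 times in 6 of 18 alternative settings. The other 5 were the sodium-calcium exchanger Slc8a1 (0.63), the inhibitor of DNA binding Id2 (0.63), the chromatin protein Hmgb2 (0.61), the ceramide synthase Cers4 (0.59) and the cornified envelope gene Sprr2a1 (0.65). Of the 106 Utx-cKO counts of Slc8a1, 89 lay in strip 3, and with that strip left out its ratio was -0.40. Id2 was 1.23 with WT strip 3 left out, and under 1.5 times in 9 of 18 alternative settings. Cers4 was 0.16 over nuclei and under 1.5 times in 10 of 18, and 1 Utx-cKO cell held 9 of its 68 counts. Sprr2a1 was higher by more in all other cells (1.03), as were the upper keratinocyte markers summed in lymphatic cells (0.98). The part of keratinocyte transcripts in its value was not tested.

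Lower in Utx-cKO lymphatic cells was Lcn2, by a log2 ratio of -1.51 (-2.09 to -0.96). Its counts in Utx-cKO strips 1 to 4 were 4, 3, 24 and 4, and in WT strips 1 to 4 were 14, 5, 100 and 9. WT strip 3 gave most of the difference, and without it the ratio was -0.55. Within WT strip 3 Lcn2 was 5416 CPM, against 2047 CPM in the other WT strips.

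Pkhd1l1 was lower by a log2 ratio of -0.64 (-0.92 to -0.37). The Utx-cKO strips had 8447, 11500, 5431 and 7202 CPM, and the WT strips 18072, 17303, 5795 and 9752 CPM. WT strips 1 and 2 were the high ones, while WT strips 3 and 4 lay within the Utx-cKO range. With WT strip 1 left out the ratio was -0.19, with Utx-cKO strip 3 left out -0.23, and with WT strip 3 left out -1.30.

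Of 7 matrix genes with enough counts, 3 were at least 1.5 times lower in Utx-cKO and none higher, beside 8.13% and 6.5% of all 123 genes, with a list median of -0.55. They were the secreted protease Htra1 (-0.97, from 38 and 96 counts), the microfibril protein Mfap4 (-0.67) and the collagen VI chain Col6a1 (-0.61). The fibroblast markers summed in lymphatic cells were lower too (-0.47), and Mfap4 and Col6a1 were also higher in strip 3 of both sections. With WT strip 3 left out Col6a1 was 0.23 and Mfap4 -0.12, and with Utx-cKO strip 3 left out Mfap4 was -2.11. Their part in the result was not tested. The remaining lower genes were Tpi1 (-0.82), the only one of 3 glycolysis genes past that size, Plac9a (-0.73), the endothelin receptor Ednrb (-0.69), the phospholipid-binding annexin Anxa1 (-0.61) and Prelid1, which carries lipid in mitochondria (-0.61). In WT, 10 cells held 46.8% of the 171 Tpi1 counts and 1 cell held 24, and the Tpi1 ratio was -0.29 at a rule sum of at least 3 and 0.23 after thinning. With WT strip 3 left out Ednrb was 0.0028 and Anxa1 -0.016, and with Utx-cKO strip 3 left out Anxa1 was -1.21.

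Of the lymphatic markers outside the rule, Stab1 was lower in Utx-cKO by a log2 ratio of -0.28 (-0.45 to -0.11) and Nr2f2 by -0.34 (-0.57 to -0.12), with overlapping strips. None of these 4 markers was 1.5 times apart, nor were Gata2 and Fn1, which take part in valve formation. With 14.6% of all 123 genes past that size, a count of 0 among so few genes sets them apart from no others. Of the 7 leukocyte traffic genes and 5 cell cycle genes on the panel none reached 100 counts, so they were not compared.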

How the data were processed

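The 2 whole skin sections were Xenium data. Per cell, the deposited tables hold transcript counts and the areas of cell and nucleus in µm², listed as a signal. The deposited transcript tables give each transcript's gene, position, cell and quality score, at most 40. The decoding and segmentation software is not given in the sources used. Gene transcripts with a quality score of at least 20 were counted per cell, and these equalled the authors' deposited counts in all 52308 Utx-cKO and 40371 WT cells.

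Counts were summed over a set of cells and scaled to CPM. Exact 95% intervals, for counting error only, were Poisson (levels), conditional binomial (ratios) and Clopper-Pearson (shares). Genes needed 100 counts over both sections, or over lymphatic and blood vessel cells for that comparison. Rule genes, and markers that define a class, were left out of the comparisons they define. Sizes of 1.5 times between sections and 2 times between cell classes are rules of size. Named are the 15 highest over other cells, the 10 highest and 10 lowest against blood vessel cells, up to 12 each way between sections, Kdm6a, and members of lists. The members, lists and sizes were chosen with earlier results of these data known. The genes named by depth and by strip 3 were chosen after their values were seen. No doublet caller was run. Strips are connected tissue areas of at least 1000 cells. Thinned shares used 20 transcripts per cell. The counting was tested on simulated data. Python 3.11.15, numpy 2.4.6, pandas 2.3.3, scipy 1.17.1 and matplotlib 3.10.9 were used. Alternatives were a quality of 30, nucleus transcripts, other cell and gene minimums, other rule limits, mean counts per cell, thinning and each strip left out. Some values that met these choices are left out here.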

Additional observations from a re-analysis of the deposited data

Results flagged for a closer look

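Pkhd1l1 had log2 ratios of opposite sign in the 2 vessel types. Between Utx-cKO and WT lymphatic endothelial cells its log2 ratio was -0.64, with an interval of -0.92 to -0.37. In blood vessel endothelial cells the ratio was 1.54 (0.83 to 2.28), from 48 counts in Utx-cKO and 27 in WT. It was also above 0 in all other cells (0.43, with an interval of 0.26 to 0.60), in fibroblasts (0.79) and in pericytes and smooth muscle cells (0.96). The difference between the vessel types was not tested, since there was 1 section per group. A cell could enter the blood vessel class on Cdh5 alone if it had no Prox1 or Mmrn1 transcript. Lymphatic cells missed by the rule may therefore be in that class, and their part in its Pkhd1l1 counts was not tested.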

How the results depend on the processing

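The log2 ratio of the lymphatic share, -0.27, was 0.21 with both Prox1 and Mmrn1 required, 0.0090 without Utx-cKO strip 1, and -0.90 to 0.12 over all strips left out in turn. The 8 genes higher in Utx-cKO became 5 at a quality of 30, 2 over nuclei, 4 at a rule sum of 3, 1 with both rule genes, 2 at 40 transcripts per cell, 17 at a gene minimum of 50 counts, 1 by mean counts per cell, 13 after thinning and 5 without WT strip 1. The 10 lower became 5 over nuclei, 4 with both rule genes, 18 at a gene minimum of 50, 29 by mean counts per cell, 16 after thinning and 23 without Utx-cKO strip 3. Kdm6a was 0.52 after thinning. The median distance to a granular keratinocyte was 85.1 µm without strip 3 and 40.8 µm without strip 4 in Utx-cKO, and 45.7 µm without strip 1 and 75.3 µm without strip 3 in WT. To a keratinocyte-marker cell it was 23.9 and 25.8 µm. Signs turned for Tpi1 after thinning (0.23), for Slc8a1 without Utx-cKO strip 3 (-0.40), and without WT strip 3 for Col6a1 (0.23) and Ednrb (0.0028). The causes were not tested. The counts against blood vessel cells stayed at 14 to 25 higher and 29 to 47 lower. Counts by depth were recomputed with settings chosen after the data were seen, and stayed at 4 to 9 higher and 13 to 17 lower. No paired analysis was possible because each group has 1 section. Counting error is largest for the rarer named genes, several of which rest on fewer than 100 counts per section.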
